A study of Homo sapiens with 6 samples.

Results

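Nuclear genes for the subunits of oxidative phosphorylation were compared between E1, described by the labels as a metastatic colon cancer line obtained in vivo, and HCT116, an established line from a colon carcinoma, labelled poorly metastatic. Both groups carry HCT116 as their cell line label, and no genotype, treatment, passage or time is given for either of them. Total RNA was hybridised to 3 Affymetrix arrays per line, and nothing says that the arrays of a line came from separate cultures, so p-values rest on array-to-array spread alone, and that spread may be technical. Members were chosen by gene symbol alone, from probe sets with exactly 1 symbol: NDUF genes of complex I, SDH genes of complex II, UQCR genes and CYC1 of complex III, COX genes of complex IV, ATP5 genes of the ATP synthase, and CYCS. The pattern found 68 genes with 99 probe sets, out of 11963 genes measured. Of the 68, 66 encode a subunit, the carrier cytochrome c or the ATP synthase inhibitor. The other members are the pseudogene ATP5MC2P1 and the antisense RNA NDUFB2-AS1, which share a name stem with the subunits. Where a gene had several probe sets, the one with the highest average on the log2(signal + 32) scale stood for it, and fold changes, also called log2 differences, are on that scale, E1 minus HCT116.

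The respiratory chain of the inner mitochondrial membrane passes electrons from NADH, through complex I, and from succinate, through complex II, to ubiquinone. Complex III hands them on to cytochrome c, complex IV reduces oxygen, and the proton gradient built along the way drives the rotary ATP synthase, complex V. Most subunits are encoded in the nucleus and imported, while a small hydrophobic core is encoded by mitochondrial DNA, so the chain draws on both genomes.

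The E1 arrays differed in how evenly transcripts were covered. For GAPDH, 3' over 5' control signal was 0.803, 34.1 and 71.9 on E1 arrays 1, 2 and 3, against 0.811, 0.793 and 0.774 on the HCT116 arrays. Signal from 5' ends was therefore low on E1 arrays 2 and 3 only, and the counts, list results and most single genes are also given for E1 array 1 alone against HCT116. None of 12 colon epithelial markers was called in limma. Their log2 differences were positive for 5 and negative for 7. Of the bright ones, KRT8 read 2862, 372 and 103 in E1 and 4693, 3169 and 4352 in HCT116, a log2 difference of -2.91 (SE 1.03). KRT19 and KRT18 stood at -0.80 and -0.40. On E1 array 1 alone KRT8, KRT19 and KRT18 stood at -0.48, -0.18 and -0.32. CDH1 read 584, 606 and 959 in E1 and 692, 938 and 486 in HCT116, a log2 difference of 0.03 (SE 0.29). EPCAM read 1691, 2950 and 3428 in E1 and 1956, 2009 and 1885 in HCT116, while the intestinal transcription factor CDX2 read at most 8.20 in E1 and 22.5 in HCT116. The summed signal of 12 epithelial markers was 11737 to 14725 in E1 and 16918 to 19532 in HCT116. That of 8 fibroblast markers was 298 to 449 in E1 and 408 to 452 in HCT116, of 5 endothelial markers 97.2 to 134 and 92.0 to 112, of 5 leukocyte markers 157 to 216 and 190.0 to 268, and of 7 muscle markers 498 to 840.3 and 520.4 to 687.

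Members differed between the lines about as often as all genes did. None of the 68 genes was called by limma at an adjusted p under 0.05 over all genes, where 0.418% of all genes were called, and the smallest adjusted p among the members was 0.204. At an unadjusted p under 0.05 there were 12 members, 4 higher and 8 lower in E1, or 17.6% of them, against 15% of all genes (5.29% higher and 9.7% lower). The median log2 fold change was 0.08 over the members, with 42 positive and 26 negative values, against -0.01 over all genes, and 44 of the 66 subunit genes lay within 0.3 of 0. Changes of at least 2-fold were seen for 3 members, all lower in E1, and for 5.47% of all genes. The E1 and HCT116 arrays did not overlap for 15 members, 4 higher and 11 lower in E1, which is 22.1% of the members, against 18.8% of all genes (8.18% higher and 10.7% lower). In these bulk samples, fewer cells and less RNA per cell cannot be told apart. The split of members without overlap changed with the scaling between arrays. It was 16 higher and 5 lower after quantile normalization, and 7 and 7 after array medians were subtracted. Quantile normalization moved the median of all genes to 0.075 and that of the members to 0.13. Subtracting array medians moved them to 0.12 and 0.21. These counts stand without the share of all genes under the same scaling, so they are no result about the members alone. A p that misses the threshold does not show that the lines were alike, and 3 arrays per line limit what can be seen.

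Member values differed among the E1 arrays. On E1 array 1, 42 of the 68 genes read below all 3 HCT116 arrays, against 33% of all genes, and 7 read above all of them, against 24.7%. The median difference from the HCT116 mean was -0.19 on E1 array 1, 0.12 on E1 array 2 and 0.30 on E1 array 3, and over all genes it was -0.05, -0.03 and 0.05. For the 5981 genes above the median level it was -0.15, -0.01 and 0.12. Of those 5981 genes, 2520 read below all 3 HCT116 arrays on E1 array 1 and 1107 above all of them. E1 arrays 2 and 3 both read above E1 array 1 for 46 members, against 40.3% of all genes, and both below it for 14, against 33.3%. Among the 5981 genes above the median level these counts were 3069 and 1688. In 17 of the 66 subunit genes E1 array 1 lay below every HCT116 array while E1 arrays 2 and 3 lay above every one, a pattern picked out after the values were seen and shown by 5.03% of all genes. After quantile normalization the median of the members on E1 array 1 was 0.06, and 17 members read below all HCT116 arrays. The low readings of these genes on E1 array 1 therefore changed with the scaling between arrays. The share of all genes under that scaling is not given, so the 17 is no result about the members alone. The part of the 5' signal in these differences was not tested.

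**Figure D1:**
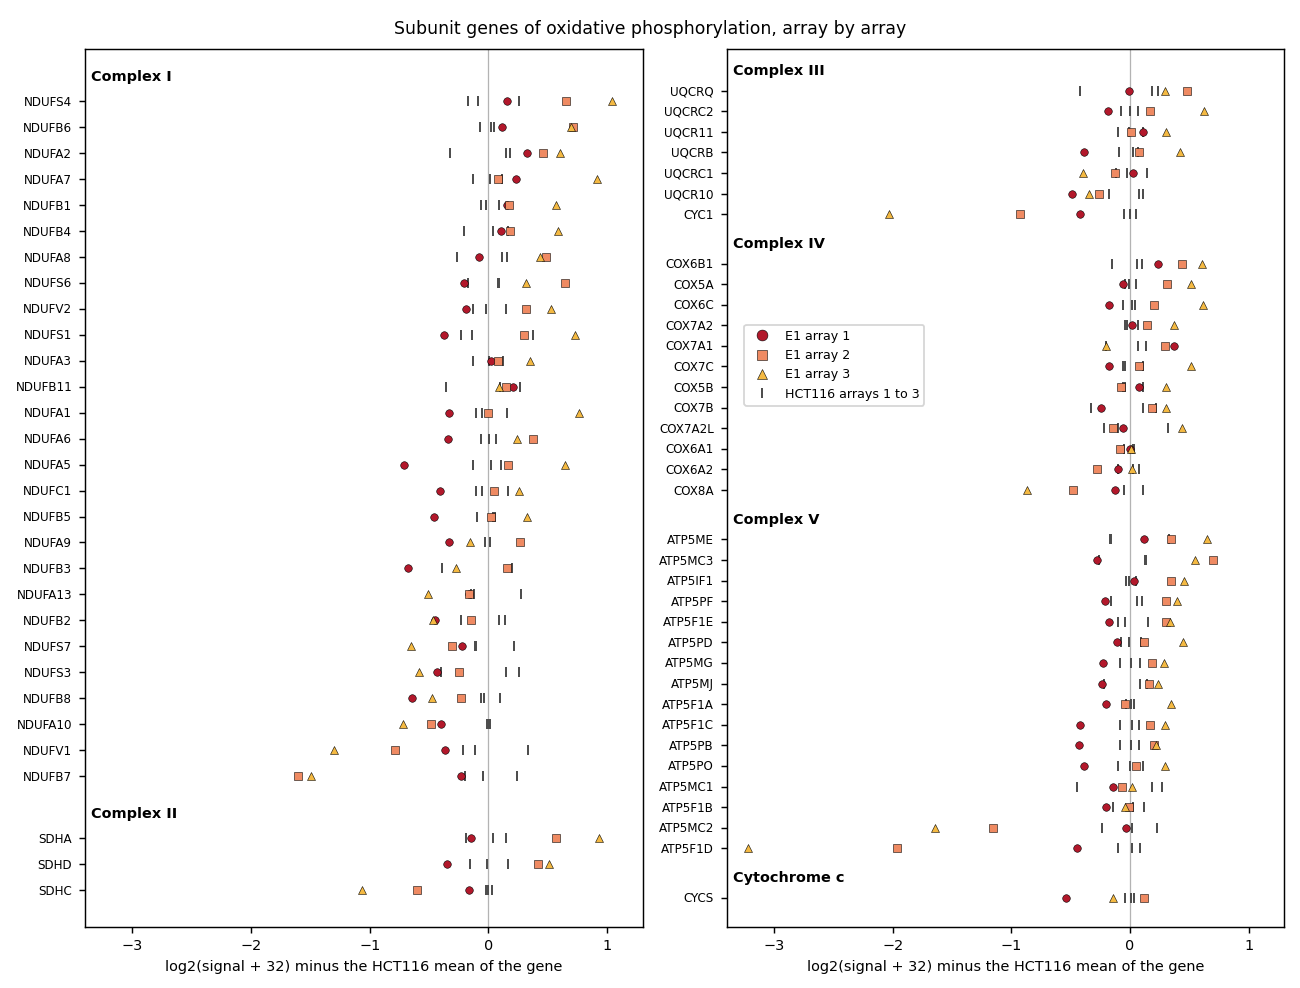
Each row is 1 of the 66 subunit genes, grouped by complex, and the horizontal axis is log2(signal + 32) minus the mean of the 3 HCT116 arrays for that gene. Filled symbols are the 3 E1 arrays and vertical ticks the 3 HCT116 arrays. Most circles (E1 array 1) lie left of 0 and most triangles (E1 array 3) right of it, while ATP5F1D, CYC1, ATP5MC2, NDUFB7, NDUFV1 and SDHC lie far to the left on E1 arrays 2 and 3.

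Nuclear respiratory factor NRF1, the ETS factor GABPA and YY1 are known regulators of these genes, so the 250 bases before each gene's start were read from the RefSeq table of GRCh38.p14, which matched 58 of the 68 members by gene number. Those not matched were ATP5F1B, ATP5F1D, ATP5MC2P1, ATP5MC3, COX6C, COX7A1, CYC1, NDUFB5, SDHC and UQCRB. The NRF1 letters, GCGCA and GCGC with any 1 base between them, occurred on either strand in 11 of 58 members, or 19.0%, against 6.20% of 27305 genes with an entry. The GABPA letters CCGGAAG on either strand occurred in 15, or 25.9%, against 10.2%, the YY1 letters ATGGCGGC in 2, or 3.45%, against 1.59%, and TATAAA in 7, or 12.1%, against 13.0%. The 27305 genes are more than the 11963 measured here, so the comparison is not limited to genes like the members. A match is a description of these letters and not a site shown to be bound. The median log2 fold change was 0.14 for members with the NRF1 letters and 0.08 for those without, and 0.14 and 0.08 for members with and without the GABPA letters. The 4 windows below belong to NDUFB7 and COX8A, which read low on E1 arrays 2 and 3, and to COX6B1 and SDHA, which had the largest positive fold changes of their complexes. They run 5' to 3' on the strand of the gene and end at the base before its start, and capitals mark the GABPA or NRF1 letters.
NDUFB7, chr19:14572067-14572316, minus strand: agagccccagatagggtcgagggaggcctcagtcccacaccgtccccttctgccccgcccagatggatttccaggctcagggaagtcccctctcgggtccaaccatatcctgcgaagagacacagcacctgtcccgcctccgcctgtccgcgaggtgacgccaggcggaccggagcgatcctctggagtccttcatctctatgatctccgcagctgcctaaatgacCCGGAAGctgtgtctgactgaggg
COX8A, chr11:63974370-63974619, plus strand: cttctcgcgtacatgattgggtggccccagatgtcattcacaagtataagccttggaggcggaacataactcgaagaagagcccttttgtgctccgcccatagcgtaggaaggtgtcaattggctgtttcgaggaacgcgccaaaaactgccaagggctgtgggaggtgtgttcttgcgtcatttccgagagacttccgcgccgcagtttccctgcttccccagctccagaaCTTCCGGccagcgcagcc
COX6B1, chr19:35648073-35648322, plus strand: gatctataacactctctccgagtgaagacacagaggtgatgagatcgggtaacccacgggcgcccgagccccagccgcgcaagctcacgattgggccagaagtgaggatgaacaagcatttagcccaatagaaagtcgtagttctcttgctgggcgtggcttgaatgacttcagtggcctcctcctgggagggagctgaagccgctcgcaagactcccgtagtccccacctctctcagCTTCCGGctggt
SDHA, chr5:218070-218319, plus strand: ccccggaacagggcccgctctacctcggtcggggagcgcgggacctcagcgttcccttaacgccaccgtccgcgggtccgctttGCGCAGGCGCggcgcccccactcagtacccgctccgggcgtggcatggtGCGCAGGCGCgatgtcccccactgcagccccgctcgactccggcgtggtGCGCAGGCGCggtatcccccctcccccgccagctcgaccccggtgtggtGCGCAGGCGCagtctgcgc
The GABPA letters began at position -24 in NDUFB7, -18 in COX8A and -12 in COX6B1, counted back from the gene's start with the base before it as -1. They stood on the gene's strand in NDUFB7 and on the opposite strand in COX8A and COX6B1. Every window shown holds marked letters, so these windows cannot tell how the letters relate to the direction of a gene. The SDHA window held the NRF1 letters at 4 places, beginning at -166, -117, -68 and -19.

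Complex I, NADH dehydrogenase, was represented by 27 subunit genes. Their median log2 fold change was 0.09, with 15 positive and 12 negative. The 22 accessory subunits had a median of 0.12 and the 5 core catalytic subunits one of -0.39. At an unadjusted p under 0.05 in limma there were 3 accessory genes higher and 3 lower, and 1 core gene lower. Of all genes, 5.29% were higher and 9.7% lower. On E1 array 1 all 5 core genes and 13 of the 22 accessory genes read below all 3 HCT116 arrays. So did 33% of all genes, and 2520 of the 5981 genes above the median level. As given above, low readings on E1 array 1 changed with the scaling between arrays.

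Among accessory genes, NDUFS4, which is needed for late assembly and is mutated in Leigh syndrome, read 833, 1188 and 1561 in E1 and 655, 893 and 697 in HCT116. The log2 difference was 0.62 (SE 0.25, adjusted p = 0.327), the largest positive one of the complex, although E1 array 1 lay within the HCT116 range. NDUFB6, a subunit of the membrane arm, read 1039, 1587 and 1567 in E1 and 974, 911 and 992 in HCT116, so that every E1 array was higher, by 0.50 (SE 0.19, adjusted p = 0.312). That gap was only 0.11 for E1 array 1 alone. NDUFA2 read 1082, 1189 and 1314 in E1 and 976, 676 and 951 in HCT116, again without overlap, by 0.46 (SE 0.18), and by 0.33 on E1 array 1 alone. NDUFB1 was the other complex I gene higher on every E1 array, by 0.30 (SE 0.16), and by 0.15 on E1 array 1 alone.

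NDUFB7, a membrane arm subunit on the intermembrane side, read 164, 43.9 and 49.8 in E1 and 239.9, 192 and 169 in HCT116. All E1 arrays were lower, with a log2 difference of -1.11 (SE 0.38, adjusted p = 0.273), but E1 array 1 differed from the HCT116 mean by only -0.23. NDUFV1, the flavin-binding subunit that accepts electrons from NADH, read 769.8, 566 and 388 in E1 and 919, 1267 and 856 in HCT116, a log2 difference of -0.82 (SE 0.27, adjusted p = 0.271). E1 array 1 alone gave -0.36. The other core subunits were NDUFV2 at 0.22, NDUFS1 at 0.22, NDUFS7 at -0.39 and NDUFS3 at -0.42, with adjusted p from 0.363 to 0.819.

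NDUFA10 was the member with the smallest p and differed from NDUFB7 and NDUFV1 in that its E1 arrays stood close together. It read 979, 923 and 779 in E1 and 1291, 1304 and 1313 in HCT116, a log2 difference of -0.53 (SE 0.14, adjusted p = 0.204), and -0.40 on E1 array 1 alone. NDUFB8, a membrane arm subunit often used as a marker of assembled complex I, read 1187, 1587 and 1339 in E1 and 1790.3, 1828 and 2008 in HCT116, a log2 difference of -0.45 (SE 0.15, adjusted p = 0.278). E1 array 1 was the lowest array for NDUFB8, at -0.64. NDUFA5, an accessory subunit of the matrix arm, had the lowest value of any subunit gene on E1 array 1, at -0.71, but read 274, 529 and 747 in E1 and 424, 507 and 476 in HCT116, and its fold change over all arrays was 0.03 (SE 0.33).

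Complex II, succinate dehydrogenase, was represented by SDHA, SDHC and SDHD, and SDHB was not analysed here. SDHA, the flavoprotein that oxidises succinate, read 420.4, 712 and 923 in E1 and 525, 408 and 485 in HCT116, a log2 difference of 0.45 (SE 0.28, adjusted p = 0.512), and -0.15 on E1 array 1 alone. SDHD, a membrane anchor, read 553, 967 and 1034 in E1 and 806, 638 and 709 in HCT116, a log2 difference of 0.19 (SE 0.25, adjusted p = 0.798), and -0.35 on E1 array 1 alone. Both were below or within the HCT116 range on E1 array 1 and above it on the other E1 arrays. SDHC, the other anchor, went the opposite way on E1 arrays 2 and 3, with 759, 552 and 392 in E1 and 841, 873 and 850.0 in HCT116, a log2 difference of -0.61 (SE 0.23, adjusted p = 0.311). SDHC stood at -0.16 on E1 array 1 alone.

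Complex III, the cytochrome bc1 complex, was represented by 7 genes with a median log2 fold change of 0.03. CYC1, cytochrome c1, read 2744, 1921 and 878 in E1 and 3691, 3823 and 3549 in HCT116. Every E1 array was lower, with a log2 difference of -1.13 (SE 0.39, adjusted p = 0.280), and -0.42 on E1 array 1 alone. UQCR10, a small subunit, read 2196, 2579.9 and 2420.1 in E1 and 3329, 2734 and 3254 in HCT116, a log2 difference of -0.37 (SE 0.15, adjusted p = 0.318), and -0.49 on E1 array 1 alone, so that its E1 arrays stayed together below HCT116.

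UQCRQ, a small subunit known as ubiquinone-binding protein, read 2665, 3755 and 3295 in E1 and 3048, 1995 and 3154 in HCT116, a log2 difference of 0.26 (SE 0.23, adjusted p = 0.667). The core protein gene UQCRC2 read 1152, 1486 and 2042 in E1 and 1320.4, 1385 and 1251 in HCT116, a log2 difference of 0.20 (SE 0.22, adjusted p = 0.745). Its partner UQCRC1 stood at -0.17 (SE 0.16), UQCR11 at 0.14 and UQCRB at 0.03, all with overlapping arrays. CYCS, the soluble carrier cytochrome c that also triggers apoptosome assembly, read 3232, 5119.8 and 4248 in E1 and 4806, 4570.0 and 4743 in HCT116. Its log2 difference was -0.19 (SE 0.19, adjusted p = 0.718), and -0.54 on E1 array 1 alone.

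Complex IV, cytochrome c oxidase, was represented by 12 genes whose log2 fold changes ranged from -0.49 to 0.43, with a median of 0.12 and 9 of 12 positive. COX6B1, which links the monomers on the intermembrane side, read 2220.3, 2567 and 2888 in E1 and 2020.2, 1688 and 1959 in HCT116, higher on every E1 array by 0.43 (SE 0.16, adjusted p = 0.295), and by 0.23 on E1 array 1 alone. COX5A, a subunit on the matrix side, read 1776, 2296 and 2649.9 in E1 and 1834, 1793 and 1916 in HCT116, a log2 difference of 0.26 (SE 0.18, adjusted p = 0.550). COX8A, a small membrane subunit in its ubiquitous form, read 3288, 2563 and 1958 in E1 and 3876, 3458 and 3466 in HCT116, without overlap, a log2 difference of -0.49 (SE 0.21, adjusted p = 0.336). COX8A stood at -0.13 on E1 array 1 alone.

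Several complex IV subunits exist as a ubiquitous and a heart and skeletal muscle form. Ubiquitous COX6A1 read 5101, 4801 and 5124 in E1 and 4912, 5199.9 and 5174 in HCT116, a log2 difference of -0.02 (SE 0.12), and the arrays of the lines overlapped. Its muscle counterpart COX6A2 read 62.1, 50.9 and 69.8 in E1 and 70.4, 61.9 and 74.4 in HCT116, a log2 difference of -0.12 (SE 0.14). COX7A2 read 3102, 3395 and 3980.4 in E1 and 3213, 2988 and 3025 in HCT116, a log2 difference of 0.17 (SE 0.14), while its muscle counterpart COX7A1 read at most 21.3 in E1 and 13.2 in HCT116. COX7A2L, which takes part in supercomplexes with complex III, read 1086, 1023 and 1549 in E1 and 1055, 1429 and 970.0 in HCT116, a log2 difference of 0.08 (SE 0.22). None of these isoforms passed in the limma fit, and no level of one probe set can be set against that of another. COX6B2, COX8C, NDUFA4 and NDUFA4L2 were not analysed here. COX5B, COX6C, COX7B and COX7C lay between 0.08 and 0.21.

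Complex V, the ATP synthase, was represented by 16 genes, with 10 positive and 6 negative log2 fold changes and a median of 0.04. Of these, 12 read below all HCT116 arrays on E1 array 1, against 33% of all genes. E1 arrays 2 and 3 both read above E1 array 1 for 14 of the 16, against 40.3% of all genes. Among the 5981 genes above the median level, these counts were 2520 and 3069. In the F1 part, which includes the catalytic head, ATP5F1A stood at 0.03, ATP5F1B at -0.08, ATP5F1C at 0.01 and ATP5F1E at 0.15. Their SE ran from 0.14 to 0.21. The delta subunit gene ATP5F1D had the largest difference of all members. It read 1249, 416 and 156 in E1 and 1826, 1732 and 1601 in HCT116, a log2 difference of -1.88 (SE 0.64, adjusted p = 0.274), and -0.45 on E1 array 1 alone. Its E1 mean was 607 ± 571 and its HCT116 mean 1719.7 ± 113 (SD, n = 3 each), so the spread among E1 arrays was as wide as their mean.

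The c ring, whose rotation is driven by protons, is encoded by ATP5MC1, ATP5MC2 and ATP5MC3, which give the same mature protein with different import sequences. ATP5MC1 read 692, 734 and 779 in E1 and 878, 555 and 935 in HCT116, a log2 difference of -0.07 (SE 0.22). ATP5MC2 read 1227, 547 and 380.4 in E1 and 1272, 1478 and 1061 in HCT116, a log2 difference of -0.95 (SE 0.40, adjusted p = 0.340), with E1 array 1 inside the HCT116 range at -0.04. ATP5MC3 read 1980.2, 3931 and 3529.6 in E1 and 2635, 2002 and 2633 in HCT116, a log2 difference of 0.32 (SE 0.28, adjusted p = 0.659), and -0.28 on E1 array 1 alone. On E1 arrays 2 and 3 the paralogs therefore parted, ATP5MC2 low and ATP5MC3 high, while on E1 array 1 neither passed. The differences between paralogs were not tested.

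The peripheral stalk genes ATP5PB, ATP5PD, ATP5PF and ATP5PO, which hold the head still, lay between -0.02 and 0.16. On the probe sets used, all 4 read below every HCT116 array on E1 array 1, as 33% of all genes did. A second, dimmer ATP5PO probe set stood at 0.23 on that array. ATP5ME, a membrane subunit, read 1152, 1356 and 1681 in E1 and 944, 937 and 1339 in HCT116, a log2 difference of 0.37 (SE 0.21, adjusted p = 0.465), and 0.12 on E1 array 1 alone. ATP5IF1, which blocks hydrolysis of ATP when the gradient fails, stood at 0.28 (SE 0.15, adjusted p = 0.454), and at 0.03 on E1 array 1 alone. The pseudogene ATP5MC2P1 read at most 51.1 in E1 and 33.2 in HCT116, and the antisense RNA NDUFB2-AS1 at most 48.0 and 32.7.

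**Figure D2:**
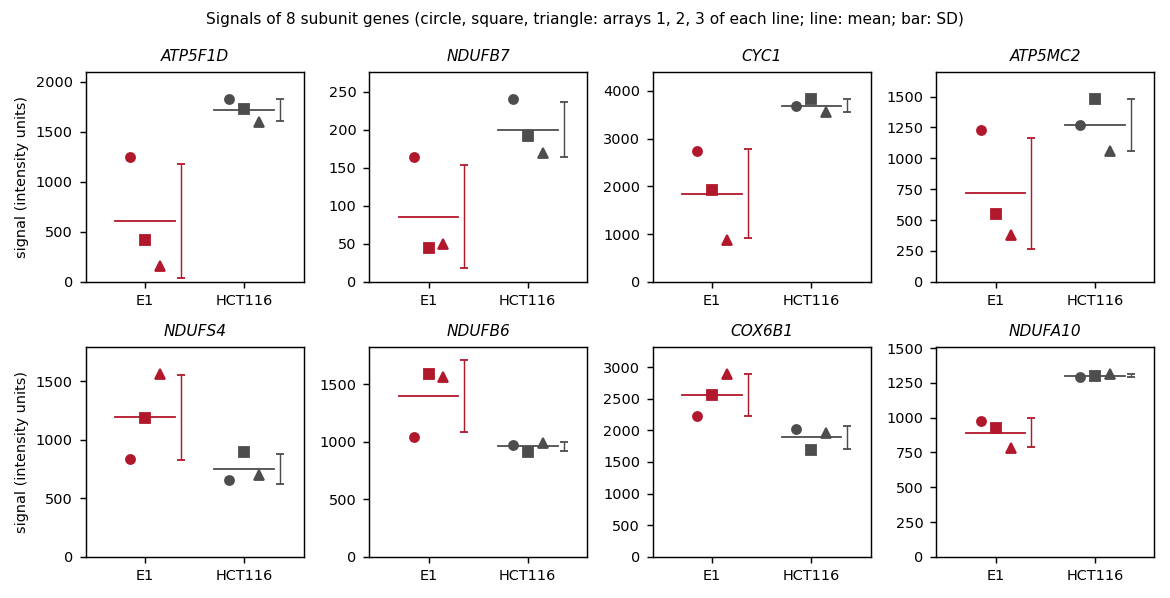
Signal in intensity units for 8 subunit genes, E1 on the left and HCT116 on the right of each panel, on linear axes from 0. Points are single arrays, horizontal lines the means and bars the SD over 3 arrays. ATP5F1D, NDUFB7, CYC1 and ATP5MC2 read low on E1 arrays 2 and 3, whereas the E1 arrays of NDUFA10 and COX6B1 stay together.

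Leaving out E1 array 1, so that E1 was represented by the arrays with low 5' signal alone, changed the calls. Then 6 of the 68 members were called in limma, 1 higher and 5 lower, or 8.82% of them, against 8.97% of all genes (1.64% higher and 7.33% lower). Of the 5981 genes above the median level, 144 were called higher and 660 lower. There were 21 members with an unadjusted p under 0.05, or 30.9%, against 24.5% of all genes (9.86% higher and 14.7% lower). Arrays did not overlap for 29 members higher and 13 lower, or 61.8%, against 41% of all genes (19.6% higher and 21.4% lower). NDUFB6 was higher by 0.70 (SE 0.13, adjusted p = 0.0322). ATP5F1D was lower at -2.59 (SE 0.36, adjusted p = 0.0126), NDUFB7 at -1.55 (SE 0.18, adjusted p = 0.00701) and CYC1 at -1.48 (SE 0.32, adjusted p = 0.0469). ATP5MC2 stood at -1.40 (SE 0.22, adjusted p = 0.0188) and SDHC at -0.83 (SE 0.18, adjusted p = 0.0451). These 5 lower genes and NDUFV1 were the members at least 2-fold below the HCT116 mean on E1 array 3, where 8.18% of all genes were, and they lie on chromosomes 1, 8, 11, 12 and 19. On E1 array 1 no subunit gene was 2-fold away from HCT116 in either direction on the probe set that stood for it. The second ATP5F1D probe set stood at -1.18 there. E1 array 1 alone gave 0 called members in limma, where 0.0167% of all genes were called (0.00836% higher and 0.00836% lower). It gave 5 members with an unadjusted p under 0.05, against 11.5% of all genes (4.44% higher and 7.05% lower), namely NDUFA5, NDUFB5, NDUFB8 and CYCS, all lower, and ATP5MC2P1, higher.

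Other mitochondrial gene lists were read in the same fit. None of their genes was called in limma over all genes, and their counts at an unadjusted p stand against 9.7% of all genes lower and 5.29% higher. Of 51 mitochondrial ribosomal proteins, 11 were lower and 0 higher at an unadjusted p under 0.05, with a median of -0.20, and MRPL4 had the smallest p, at -0.94 (SE 0.23, adjusted p = 0.180), and -0.52 on E1 array 1 alone. Of 28 import, porin and carrier genes 6 were lower, with a median of -0.05 and the outer membrane channel TOMM40 first, at -0.94 (SE 0.27), and -0.53 on E1 array 1 alone. Of 29 respiratory chain assembly factors 4 were lower, with a median of -0.03, led by the complex I assembly factor ECSIT at -1.20 (SE 0.30), and -0.66 on E1 array 1 alone. Of 16 genes of the TCA cycle and pyruvate dehydrogenase 3 were lower, with a median of -0.01, led by IDH3B, a subunit of isocitrate dehydrogenase, at -0.62 (SE 0.17), and -0.43 on E1 array 1 alone. Of 17 regulators of mitochondrial gene expression 2 were lower, with a median of -0.03, led by the mitochondrial RNA polymerase POLRMT at -0.99 (SE 0.25), and -0.48 on E1 array 1 alone. On E1 array 1 alone the genes lower at an unadjusted p under 0.05 numbered 16 of the 51 ribosomal proteins, 1 of the 28 import, porin and carrier genes, 5 of the 29 assembly factors, 0 of the 16 TCA cycle genes and 4 of the 17 regulators, with 0 higher in each list, against 7.05% of all genes lower and 4.44% higher. Of 17 listed subunits outside the naming pattern 3 were measured, with 0 at an unadjusted p under 0.05, and COX4I1, the core-capping subunit of complex IV, stood at 0.07 (SE 0.13, adjusted p = 0.869).

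**Figure D3:**
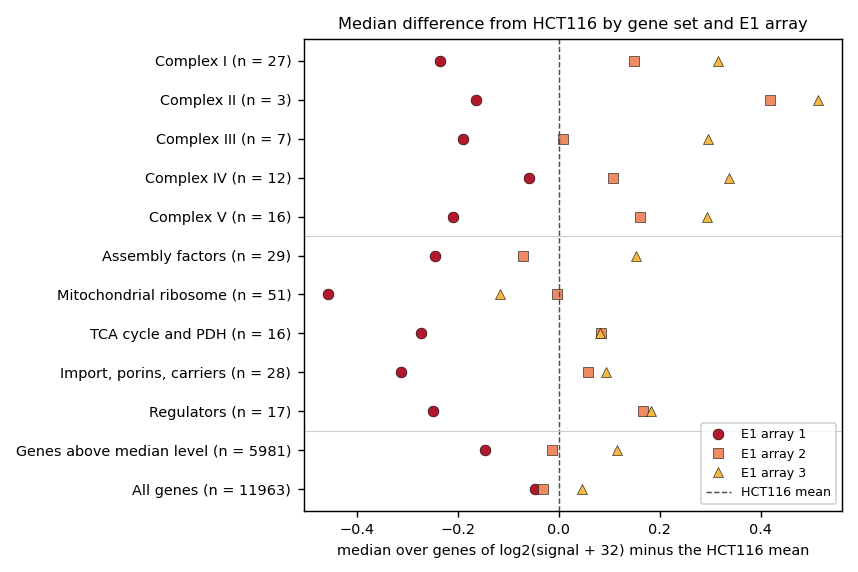
Median over the genes of each set of log2(signal + 32) minus the HCT116 mean, for each E1 array, with the number of genes in brackets and the HCT116 mean as a dashed line at 0. Complexes I to V lie below 0 on E1 array 1 and above 0 on E1 arrays 2 and 3, and the mitochondrial ribosomal proteins lie at or below 0 on all E1 arrays.

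Several probe sets measured 20 of the 68 members, and 23 of the 31 other probe sets had the same sign as the one used. Of those with a mean signal of at least 100, 17 of 23 had the same sign. Both ATP5F1D probe sets were lower in E1, at -1.88 (SE 0.65) and -1.73 (SE 0.38), and the second was also low on E1 array 1, at -1.18. For SDHC 3 probe sets were lower, at -0.61, -0.70 and -1.45, and another was higher, at 0.40 (SE 0.17), so the direction of SDHC depended on the probe set. For NDUFB8 the second probe set stood at -0.01 (SE 0.20). UQCRC2, UQCRB, NDUFA6, ATP5MJ and ATP5PO each had a bright probe set of the opposite sign, at -0.14, -0.17, -0.15, -0.13 and 0.51. The probe set used ended in _x_at for 6 members and in _s_at for 28, endings that mark probes that can match more than 1 transcript. When probe sets are tested singly, 0 of the 99 were called in limma.

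**Figure D4:**
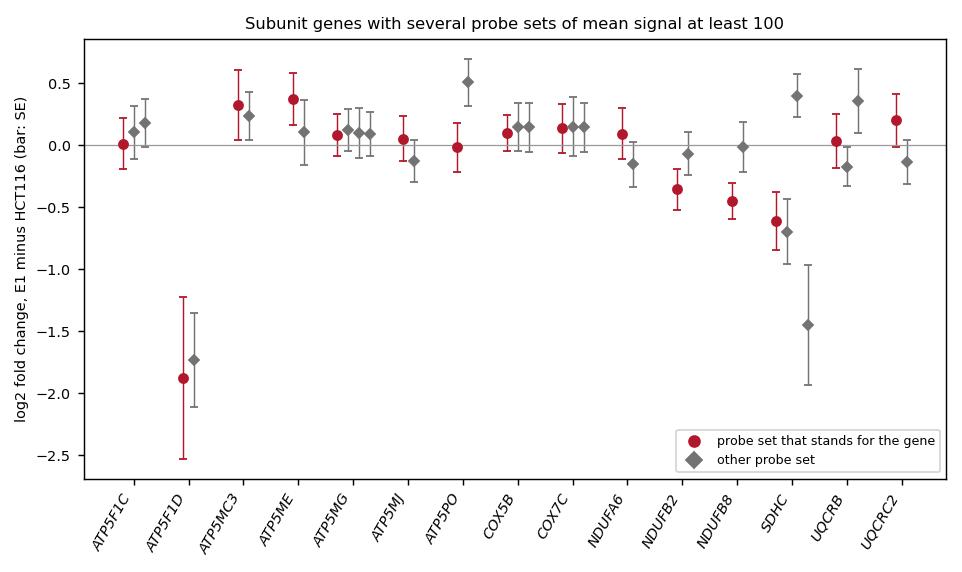
Log2 fold change, E1 minus HCT116, with its SE, for each probe set of the 15 subunit genes that have several with a mean signal of at least 100. Circles are the probe sets that stand for the gene and diamonds the others. Both ATP5F1D probe sets lie below 0 and those of SDHC lie on both sides of it.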

How the data were processed

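Total RNA on 6 biotin-labelled arrays is given by the deposited table as linear intensity values, for 22283 probe sets. How the authors summarised, background-corrected or scaled the deposited intensity values is not given in the sources used here. Median intensity was 48.0 to 61.2 for E1 and 61.8 to 66.5 for HCT116. Detection calls were not used, so low signals have no order.

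Values were transformed as log2(intensity + 32) without further normalization. Controls, 68 probe sets, were removed. Of the rest, 19065 had 1 symbol in the platform annotation, 1043 several and 2107 none listed. RefSeq held 11954 of the 11963 genes and changed 0 symbols. E1 minus HCT116 was fitted in R 4.3.3 by limma 3.58.1 (lmFit, then eBayes without a trend), two-sided, with Benjamini-Hochberg adjustment over all genes at 0.05. E1 array 1 alone was tested with the spread of HCT116. The members and lists were chosen with earlier results of these data known. Values by array are given for the 2 largest positive and 2 largest negative members of each complex above the median gene level, for any called member, for CYCS and for isoform groups. Other members were added after their values were seen. The fit was tested on simulated data.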

Additional observations from a re-analysis of the deposited data

How the results depend on the processing

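Counts here are over all 68 members, the pseudogene and the antisense RNA included. The count of 0 called members was the same under every setting that kept all arrays and on E1 array 1 alone. It ranged from 0 to 6 when each array was left out, with 6 without E1 array 1, and that of the other mitochondrial lists from 0 to 17. Over all genes 50 were called, against 10 with an offset of 100, 8 when _x_at and _s_at probe sets were dropped, 2 on E1 array 1 alone and 2 to 1073 with an array left out. Members at an unadjusted p under 0.05 numbered 12, against 4 with an offset of 1, 6 without those probe sets, 6 with trended and robust eBayes, 5 on E1 array 1 alone and 3 to 21 with an array left out. Members without overlap numbered 15, against 6 without those probe sets, where 46 of the 68 genes were tested. They numbered 49 on E1 array 1 alone and 17 to 42 with an array left out, where fewer arrays can overlap. Of all genes, 18.8% had no overlap with all arrays, 57.8% on E1 array 1 alone and 41% without E1 array 1. At an unadjusted p under 0.05 in limma there were 15% of all genes with all arrays and 24.5% without E1 array 1. For the other settings in this section these shares of all genes are not given, so those counts are no result about the members alone.

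With the replicate number as a block, 2 genes were called over all genes, 7 members had an unadjusted p under 0.05 and 0 were called. Same-numbered arrays did not deviate together, with correlations of -0.06, -0.36 and -0.12 across genes, and no array correlated best with its own number. Deviations from the mean of 3 arrays sum to 0, so these correlations cannot settle whether the arrays were made in pairs.

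The median log2 fold change of the members was 0.08, and -0.19 on E1 array 1 alone. There it was 0.058 after quantile normalization, which left 17 genes below all HCT116 arrays in place of 42. E1 array 1 alone called 2 genes, 1 after quantile normalization, 38 with the dimmest 40% left out, and 0 with an offset of 1 or 100, without those probe sets or with any HCT116 array left out.

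Some single genes changed sign. With medians subtracted COX6A1 stood at 0.10, ATP5MC1 at 0.063 and COX6A2 at 0.0078, and after quantile normalization COX6A2 at 0.042. UQCRC2 stood at -0.14 without those probe sets. On E1 array 1 alone ATP5MC3 stood at -0.28, COX5A at -0.056, COX6A1 at 0.0022, COX7A2L at -0.063, SDHA at -0.15, SDHD at -0.35, UQCRC2 at -0.19 and UQCRQ at -0.0070. With an array left out COX6A1 ranged from -0.051 to 0.0054, COX7A2L from -0.10 to 0.24, UQCRC2 from -0.010 to 0.39 and ATP5MC1 from -0.29 to 0.068. The causes were not tested. Of the 66 subunit genes 41 had a mean signal of at least 1000 in both lines, and the number of arrays limits the precision.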
